A study of Mus musculus with 18 samples.

Results

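Cytosolic ribosomal protein genes encode the proteins of the small and the large subunit of the ribosome that translates nuclear mRNAs. They were found by symbol: Rps or Rpl with a number and at most a short ending, Rplp0 to Rplp2, and Rpsa. The rule took 85 of the 26143 genes of the deposited table, of which 32 belonged to the small and 53 to the large subunit. Of these, 76 were core genes, 7 were paralogs of a core gene (Rps4l, Rpl22l1, Rps27l, Rpl3l, Rpl39l, Rpl10l and Rpl7l1), and the remaining 2 (Rpl6l and Rpl32l) were processed pseudogenes in the GENCODE M21 annotation.

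The study sequenced mRNA of mouse oral and esophageal squamous epithelium in 18 libraries of 4 groups. The WT group held 3 wild-type esophagus libraries. The p53 group held 3 tongue libraries heterozygous for LSL-p53 R172H, a mutant p53 allele behind a loxP-flanked stop cassette. The E20 group held 6 tongue libraries with LSL-PIK3CA H1047R, an activated catalytic subunit of PI3 kinase. The E20/p53 group held 6 tongue libraries with both alleles and K14-Cre, a recombinase driven by the promoter of a basal keratinocyte keratin. The labels name Cre for E20/p53 alone, and they do not say whether the stop cassettes were removed in the p53 and E20 libraries. The title of the series speaks of tumours started with 4NQO, a chemical carcinogen, and the labels do not say which libraries came from tumour. WT differed from the other groups in tissue as well as genotype, so tissue and genotype cannot be told apart in any comparison with WT. Nothing in the labels says whether libraries of a group came from separate animals. A p-value here thus reflects the scatter among libraries, and that scatter may be technical.

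The libraries held from 14592044 to 18176060 reads. Libraries 1 to 3 and 4 to 6 of both E20 and E20/p53 stood apart, a split first seen in the values, and levels are therefore given for 6 blocks of 3 libraries. The label of squamous epithelium was not borne out by marker genes in all blocks. The summed level of 4 general epithelial genes was at most 15.6 CPM in any library, where CPM are counts per 1000000 of the authors' scaled library total. The 6 basal keratinocyte markers summed to between 1420 and 1440 CPM in E20/p53 1-3, to between 353 and 389 in WT, and to between 24.4 and 131 in the other blocks. Most of the WT sum was Itga6, at 323 CPM, while Krt14 had 13.4, Trp63 6.09 and Krt5 0.0784. In E20 1-3 Krt14 had 66.5 and Trp63 15.7 CPM, above WT. The 6 fibroblast markers summed to between 110 and 115 CPM in E20/p53 1-3, to between 1440 and 1570 in WT and to between 8330 and 21700 in the other blocks. Most of the WT sum was Col1a2, at 1340 CPM, while Pdgfra had 8.37 and Dcn 2.33. In the p53 group, 9 skeletal muscle markers reached between 1410 and 1490 CPM, of which Chrna1 had 721, Myod1 153 and Myog 119. The library p53 replicate 3 held 3.48% of its total on the ribosomal RNA precursor gene Rn45s, against at most 0.498% in any other library.

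Ribosomal proteins are made in near equal numbers, and a cell that grows makes many ribosomes. Many of their mRNAs begin with a C followed by a run of pyrimidines, the terminal oligopyrimidine or TOP start, through which mTOR and Larp1 set their translation. PI3 kinase acts upstream of mTOR, and p53 is linked to the ribosome through Rpl5 and Rpl11, which bind Mdm2 when ribosome assembly is disturbed. Mouse chromosomes also carry many processed pseudogenes of these genes, whose sequences can be nearly identical to the mRNA.

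Starts are shown for some of the genes described below, with and without a pyrimidine run at the RefSeq base. RefSeq promoter windows (GRCm38.p6) were matched for 63 of the 85 genes, with 75 starts between them. Of these starts, 14 (18.7%) opened with C and at least 4 further pyrimidines, against 2.51% of all 32851 promoter windows in the table. A run at or close to the start was present in 32 (42.7%), against 18.3% of all. A RefSeq start need not be the base at which transcription begins in this tissue. Each sequence below runs 5′ to 3′ from 40 bases before the RefSeq start to 15 bases after it, with the pyrimidine run at the start in capitals.
Rps6: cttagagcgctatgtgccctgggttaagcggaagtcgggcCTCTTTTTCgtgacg
Rps18: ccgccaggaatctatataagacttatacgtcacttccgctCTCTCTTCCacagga
Rplp2: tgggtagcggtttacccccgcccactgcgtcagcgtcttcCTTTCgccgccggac
Rps2: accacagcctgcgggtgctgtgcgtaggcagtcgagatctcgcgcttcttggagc
Rplp0: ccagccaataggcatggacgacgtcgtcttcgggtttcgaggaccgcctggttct
Rps4x: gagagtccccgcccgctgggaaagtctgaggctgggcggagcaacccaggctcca
Rps27l: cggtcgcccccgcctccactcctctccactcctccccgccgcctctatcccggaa
Rpl22: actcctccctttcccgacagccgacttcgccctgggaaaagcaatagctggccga
Rpl22l1: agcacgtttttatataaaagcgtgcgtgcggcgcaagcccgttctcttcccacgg
Rpl7l1: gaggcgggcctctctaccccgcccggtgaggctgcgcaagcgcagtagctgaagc
The stretches lie at chr4:86857353-86857407 (minus strand) for Rps6, chr17:33955651-33955705 (minus) for Rps18 and chr7:141447611-141447665 (plus) for Rplp2. Those without such a run at the RefSeq base lie at chr17:24720023-24720077 (plus) for Rps2, chr5:115559427-115559481 (plus) for Rplp0 and chrX:102189377-102189431 (minus) for Rps4x. The others without it lie at chr9:66946046-66946100 (plus) for Rps27l, chr4:152325686-152325740 (plus) for Rpl22, chr3:28805468-28805522 (plus) for Rpl22l1 and chr17:46782642-46782696 (minus) for Rpl7l1. The starts of the paralogs Rps27l, Rpl22l1 and Rpl7l1 carried no run at the RefSeq base. Rps2, Rpl22l1 and the Rps27l start shown had a run close to that base, whereas Rplp0, Rps4x, Rpl22 and Rpl7l1 did not. Rps27l and Rpl22 have 2 starts each in the table, of which 1 is shown, and the other carried no run at that base either.

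In the windows of 300 bases (250 before to 50 after the start, both strands), CCGGAAG, a site letter pattern of ETS factors, was present in 34.7% of the member starts and 8.86% of all starts. Among its carriers were Rps6, Rps18, Rplp2, Rps2 and Rps27l. GCCATC, known from YY1, was present in 25.3% of member starts against 14.1% of all, and CACGTG, the E-box bound by Myc, in 10.7% against 7.15%. The full p53 response element was found in 0 member starts and in 0.0731% of all. A match describes letters in the window only.

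Levels within the family spanned a wide range once divided by length. The mean over the 18 libraries ran from 1.45 CPM per kb for Rpl39 to 1710 for Rpl41, with a median of 160 CPM per kb over the 76 core genes. Rpl8 (1560), Rplp1 (1480) and Rpl32 (1330 CPM per kb) followed Rpl41, and Rpl13 (5.11) was the second lowest. Most of the encoded proteins are present in equal numbers in a ribosome, and the deposited levels of their genes were not.

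The share of each transcript that occurs in no other annotated gene was read from the transcript sequences. In Rps27 only 1.35% of the 50-base windows were found nowhere else, and the median of the core genes was 38.3%. The 25 core genes with at least 50% own windows had a median of 307 CPM per kb, and the 51 below had 144. Spearman's rho between own share and CPM per kb was 0.42 across the 76 genes, given as a description since genes share libraries and base composition. How reads that match several places were counted is not given in the sources used here.

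**Figure D1:**
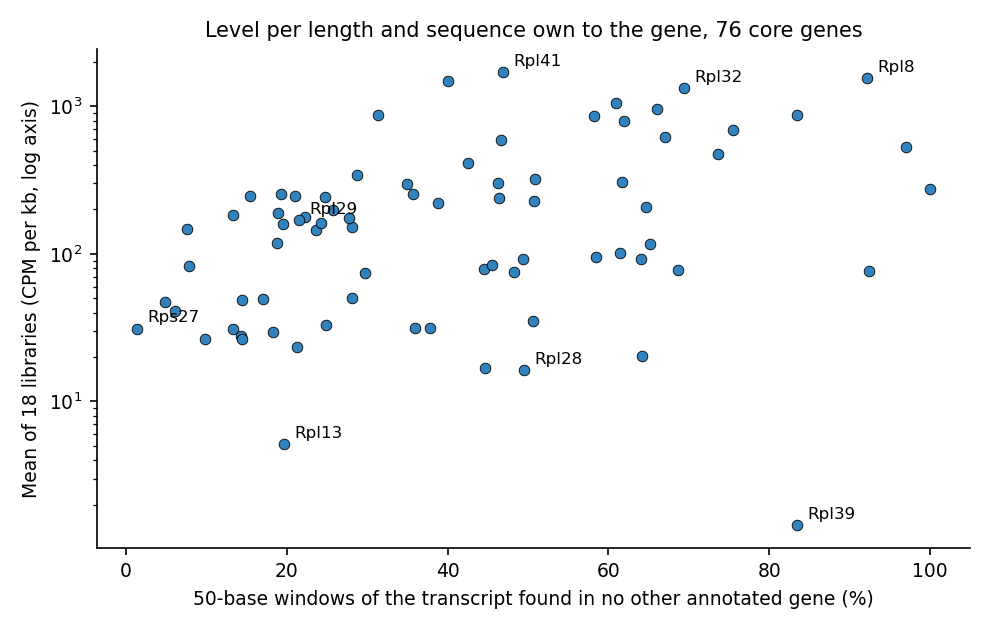
Level per length of the 76 core genes (vertical, mean of 18 libraries in CPM per kb, log axis) against the share of 50-base windows of the transcript found in no other annotated gene (horizontal, %). Each point is a gene. Rps27 stands at 1.35%, and Rpl39 is low at 1.45 CPM per kb although most of its windows are its own.

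Reads assigned to near copies were a large part of the family's signal. The table held 97 rows of pseudogenes and retrocopies that share at least 10% of windows with a member, and they belonged to 48 members. In 29 of these 48 families the copies held more reads than the parent. Rps27, which encodes a zinc finger protein of the small subunit, had 11.9 CPM in WT while its copy Rps27rt had 319 CPM. Rpl13 had 4.23 CPM in WT and its copies 119 CPM together. Rps6, the substrate of S6 kinase, had 218 CPM in WT, and its copy Rps6-ps4 had 574. The level of such a gene is therefore uncertain, and the summed level of parent and copies is given where it changes a result.

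Summed over the family, 1 block stood below all others. The 85 genes took 1.84% ± 0.0652 of the scaled library total in WT (SD, n = 3 libraries, as for the following blocks), and 1.92% ± 0.104 in p53. They took 2.1% ± 0.0882 in E20 1-3 and 1.76% ± 0.00959 in E20 4-6. In E20/p53 they took 1.37% ± 0.0102 in libraries 1 to 3 and 1.87% ± 0.0615 in libraries 4 to 6. The 3 libraries of E20/p53 1-3 lay between 1.37% and 1.38% and below all others, whose lowest was 1.75%. E20/p53 4-6 overlapped WT and p53.

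The copies moved alongside. They held 0.715% ± 0.00549 in E20/p53 1-3 and between 1.01% and 1.15% in the means of the other blocks, so parents and copies together came to 2.09% against 2.77% to 3.25%. Both subunits shared the low block: the small subunit core genes summed to 0.495% ± 0.0037 there and to between 0.662% and 0.817% elsewhere, and the large subunit core genes to 0.816% ± 0.00715 against 1.02% to 1.19%. The gap was smaller when the plain sum of reads was the denominator, with 1.53% in E20/p53 1-3 and 1.66% in E20 4-6, because the authors' scaling raised the total to between 1.11 and 1.12 times the summed reads in E20/p53 1-3 and lowered it to between 0.939 and 0.951 times in E20 4-6. In these bulk libraries, fewer cells of a type and less RNA per cell cannot be told apart. E20/p53 1-3 was also the block with the highest sum of basal keratinocyte markers and the lowest sum of fibroblast markers. Of the fibroblast list, Col1a1, Col1a2 and Col3a1 were lowest there. Dcn (7.26 CPM) and Pdgfra (50.7) were above WT (2.33 and 8.37), and Lum was near 0 in all blocks. Of the basal list, Krt15 was highest in WT, and Krt5, Krt14, Trp63, Itga6 and Itgb4 were highest in E20/p53 1-3. The part of these cell types in the difference was not tested.

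**Figure D2:**
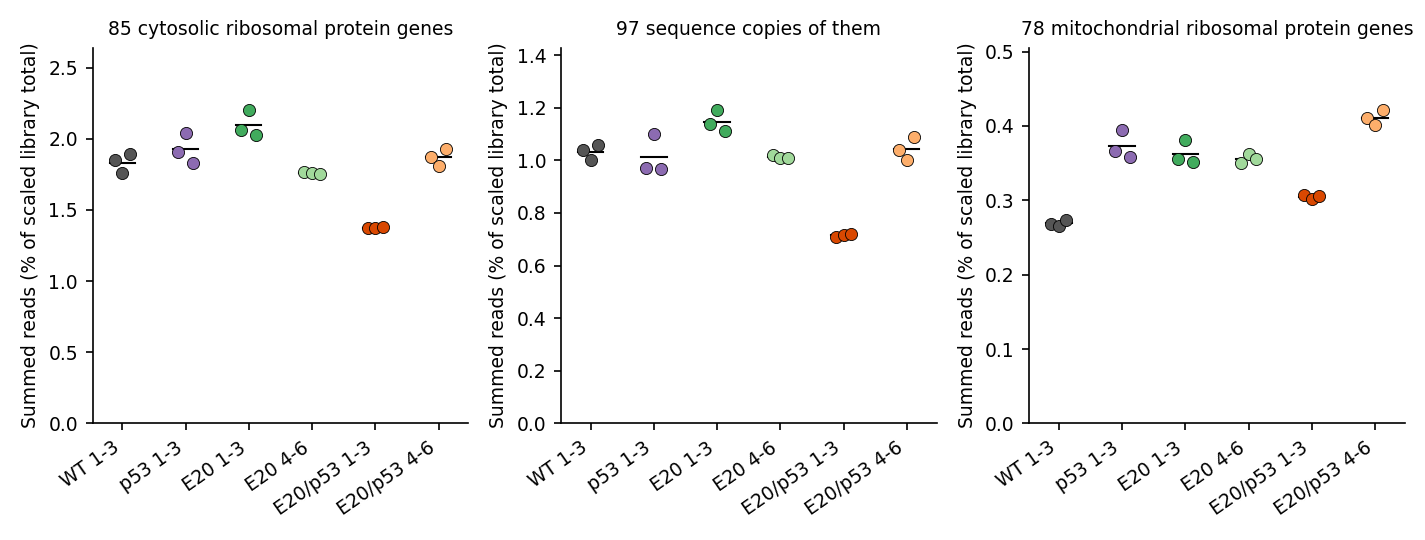
Summed reads of the 85 ribosomal protein genes, of their 97 copies and of 78 mitochondrial ribosomal protein genes, each as % of the scaled library total (vertical, from 0), by block of 3 libraries (horizontal). Points are libraries and bars are block means. For members and copies the 3 libraries of E20/p53 1-3 are the lowest, at 1.37% to 1.38% for the members, while for mitochondrial ribosomal proteins WT is lowest.

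The low block was a property of most members. E20/p53 1-3 was the lowest of the 6 blocks for 59 of the 76 core genes, and for 48 of them all 3 of its libraries lay below the other 15. The median core gene stood there at 0.689 times its mean over the 6 blocks, a log2 value of -0.54 with quartiles of -0.72 and -0.32. E20 1-3 was the highest block for 36 core genes, with a median of 0.21 on the log2 scale, and 21 of these genes had all 3 libraries above the other 15. The blocks of WT, p53, E20 4-6 and E20/p53 4-6 had medians between -0.08 and 0.09. Only Rps2 and Rps18 among the core genes were highest in E20/p53 1-3.

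**Figure D3:**
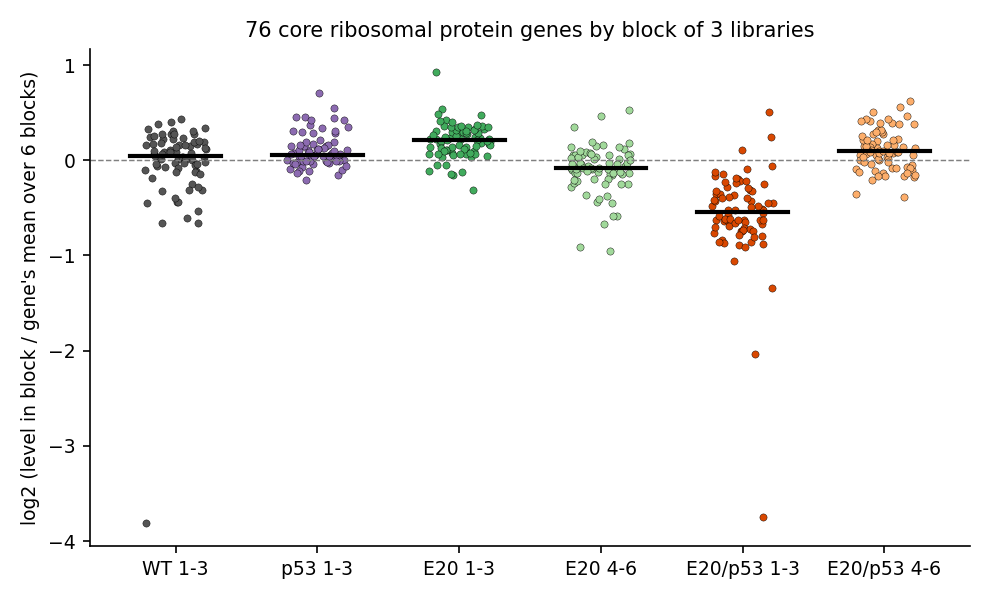
Level of each of the 76 core genes in a block divided by that gene's mean over the 6 blocks (vertical, log2), by block (horizontal). Points are genes, spread sideways at random, and bars are medians. The E20/p53 1-3 points centre on -0.54, those of E20 1-3 on 0.21, and the lowest points in WT and E20/p53 1-3 are Rpl29.

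The core genes did not keep fixed proportions. The highest block exceeded the lowest by a median of 1.92-fold, while the median coefficient of variation between libraries inside a block was 4.98%. The fold was under 1.5 for 15 genes, from 1.5 to 2 for 33 and over that for 28. Rpl13 varied least, at 1.21-fold, and Rpsa, the laminin receptor precursor of the small subunit, was next with 1.22-fold. Rpl29 varied most, at 26.7-fold. Rps28 and Rpl34, picked out after their values were seen, were the other 2 over 3-fold, and Rps28 had 10.5, 10.6 and 10.8 CPM in E20/p53 1-3 against at least 34.2 in any other library.

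The comparison of E20/p53 with E20 asks what the p53 allele, together with the labelled Cre, adds to the PIK3CA allele in tongue. Of the 82 members that passed the filter on low values, 4 were higher and 33 lower at an adjusted p under 0.05 by limma. In all, 45.1% of the members were called, against 42.6% of all 15235 genes tested, and for the lower direction the shares were 40.2% against 19.6% (23% of all genes were higher). The median log2 change of the members was -0.28, and that of all genes was 0.05. Among core genes 15 of 30 in the small subunit and 16 of 46 in the large subunit were lower. The Rpl3l, Rpl39l and Rpl10l genes did not pass the filter.

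This shift rested on libraries 1 to 3 of E20/p53. Without them 20 members were higher and 15 lower, with a median of 0.03 beside 0.05 for all genes, of which 52.9% were called. Without libraries 4 to 6, 4 were higher and 64 lower and the median was -0.57, with 65.1% of all genes called. Leaving out E20 1-3 gave 7 higher and 16 lower (44.9% of all genes called), and leaving out E20 4-6 gave 2 and 38 (38.2%). When each block entered as 1 mean, limma called 0 of all 15235 genes, so its count of 0 members (0 higher and 2 lower at an unadjusted p under 0.05) says nothing about the members. Voom on the libraries called 6 members higher and 63 lower, and 76.3% of all genes.

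**Figure D4:**
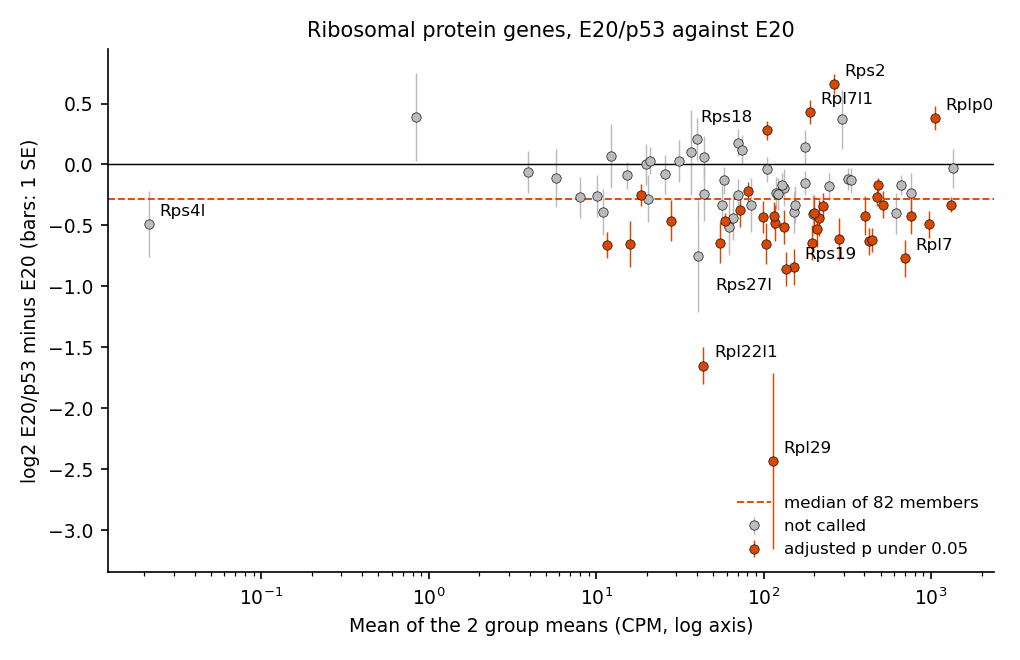
Change of the 82 tested members between E20/p53 and E20 (vertical, log2, bars are 1 SE from limma) against the mean of both group means (horizontal, CPM, log axis). Orange points have an adjusted p under 0.05, and the dashed line is the members' median of -0.28. Rps2, Rpl7l1, Rplp0 and Rps18 are the 4 called higher, and Rpl29 and Rpl22l1 fell most.

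Rps2, a protein of the small subunit, went against the family. It had 162, 149 and 161 CPM in WT, 271, 276 and 266 in p53, 225, 241 and 216 in E20 1-3, and 180, 189 and 177 in E20 4-6. In E20/p53 it had 360, 335 and 364 CPM in libraries 1 to 3 and 297, 292 and 296 in libraries 4 to 6. Every E20/p53 library was above every other library, and every WT library was below. The change was 0.66 ± 0.08 (SE) on the log2 scale against E20 with a limma adjusted p of 1.2e-05, and 1.04 ± 0.10 against WT with 4.6e-07. Rps2 has 21% own windows, so the assignment of reads between it and its pseudogenes is uncertain. Its gene lies at chr17:24718116-24721929.

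Rplp0, the base of the acidic stalk that recruits elongation factors, showed another order. It had 1340, 1280 and 1310 CPM in WT, 1530, 1580 and 1430 in p53, 1050, 1120 and 1000 in E20 1-3, and 805, 767 and 771 in E20 4-6. In E20/p53 it had 1280, 1210 and 1280, then 1080, 1130 and 1130 CPM. All E20 libraries lay below all p53 and WT libraries, while E20 and E20/p53 overlapped. By limma Rplp0 was lower in E20 than in p53 by a log2 change of -0.73 ± 0.12 (adjusted p 3.0e-04), and higher in E20/p53 than in E20 by 0.38 ± 0.10 (adjusted p 0.00656). The second difference fell to 0.16 with an adjusted p of 0.124 without E20 4-6. Its partners went the other way: Rplp1 and Rplp2 were each lower in E20/p53 than in E20 by a log2 change of -0.42, with limma adjusted p of 0.0369 and 0.0066, and for Rplp1 this reached 0.0858 when any library of E20 1-3 or E20/p53 1-3 was left out. Rps18 rose by 0.28 ± 0.08 against E20 (limma adjusted p 0.0102), and this became 0.20 with 0.0857 without E20/p53 1-3 and 0.12 with 0.209 without E20 4-6. Rplp1 and Rplp2 were not called without E20 1-3 (limma adjusted p 0.62 and 0.109) or without E20/p53 1-3 (0.368 and 0.117).

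Among the genes that fell, Rps19, whose human counterpart is the gene most often mutated in Diamond-Blackfan anaemia, had 213 CPM in E20 1-3 and 173 in E20 4-6. It had 83.1 CPM in E20/p53 1-3 and 138 in E20/p53 4-6, and no library of E20/p53 reached one of E20. Its log2 change was -0.84 ± 0.15 with a limma adjusted p of 3.1e-04. Rps6 fell by -0.44 ± 0.15 (limma adjusted p 0.0244) with overlapping groups. It had 138 CPM in E20/p53 1-3 but 229 in E20/p53 4-6, beside 268 in E20 1-3 and 217 in E20 4-6. Rpl5 fell by -0.22 ± 0.08 (limma adjusted p 0.0418), whereas its partner Rpl11 had a log2 difference of -0.08 ± 0.16 and an adjusted p of 0.7. Rpl5 had 65.6 CPM in E20/p53 1-3 but 83.9 in E20/p53 4-6, beside 87.1 in E20 1-3 and 85.8 in E20 4-6. Rps27a, which is made fused to ubiquitin, had a difference of 0.03 ± 0.17 (limma adjusted p 0.899), and Rpsa fell by -0.17 ± 0.06 (limma adjusted p 0.03). With 1 library left out, limma's adjusted p passed 0.05 for Rpl5 (up to 0.0938, in 8 of 12 fits), Rps6 (up to 0.0594, without E20 replicate 2 or any of E20/p53 1-3) and Rpsa (up to 0.0686, without any of E20 1-3 or E20/p53 replicate 1 or 5). Without the whole of E20 1-3 none of Rpl5, Rps6 and Rpsa was called (limma adjusted p 0.133, 0.224 and 0.336), and scaling by the reads outside the family ended the calls of Rpl5 and Rpsa (0.151 and 0.506).

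Rpl29, a large subunit protein that also binds heparin at the cell surface, was the most variable member. It had 7.45, 6.78 and 6.98 CPM in WT and 6.11, 7.4 and 8.6 in E20/p53 1-3. It had 133, 141 and 124 CPM in p53, 183, 202 and 182 in E20 1-3, 140, 133 and 138 in E20 4-6, and 120, 115 and 132 in E20/p53 4-6. The 18 libraries thus fell into a low set of 6 and a high set of 12 with nothing between. The 5 copies of Rpl29 took the opposite course, with 211 CPM together in WT and 209 in E20/p53 1-3, against 145 in p53, 172 in E20 1-3, 159 in E20 4-6 and 151 in E20/p53 4-6. Parent and copies summed to 217 and 218 CPM in both low blocks and to between 273 and 361 elsewhere. The log2 change against E20 was -2.43 ± 0.72 (limma adjusted p 0.0127) for the gene alone and -0.43 (adjusted p 0.00125) with the copies added. For the gene alone the call was lost without E20 1-3 (-2.20, limma adjusted p 0.0861). Rpl29 lies at chr9:106429454-106431568.

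By their labels, E20/p53 and p53 differ in the PIK3CA allele and the Cre. The 9 skeletal muscle markers also differed, with between 1410 and 1490 CPM in p53 and at most 329 in any E20/p53 library. The part of cell content in the changes was not tested. In this comparison 1 member was higher and 16 were lower by limma, 20.7% of members against 25.8% of all genes (12.9% of all genes in each direction). The median was -0.34, and 0.02 for all genes. Rps18 was the 1 higher member at 0.30 ± 0.10 (limma adjusted p 0.0361), and this call was lost without E20/p53 1-3. Rpl36a, a large subunit protein, was lower by a log2 change of -0.92 ± 0.23 (limma adjusted p 0.00809) and Rps4x by -0.71 ± 0.19 (adjusted p 0.0111). Without E20/p53 1-3 the counts were 4 and 7, with a median of 0.01 and 34.2% of all genes called. Without E20/p53 4-6 they were 2 and 65, with 63.9% of all genes called. Leaving out p53 replicate 2 left 5 lower members and replicate 1 left 6, replicate 3 or any of E20/p53 1-3 left 10, and E20/p53 replicate 4 gave 25. Rps18 was not called without any library of p53 or of E20/p53 1-3 (limma adjusted p up to 0.146), so that 0 members were then higher, and Rps4x was not called without p53 replicate 2 (0.0573). With the 2 groups fitted alone neither Rpl36a nor Rps4x was called (limma adjusted p 0.056 and 0.0693). Rpl3, which lines the peptidyl transferase centre, was lower by -1.12 ± 0.20 (limma adjusted p 6.6e-04). Only 14.4% of its windows are its own, so the assignment of reads between it and its copies is uncertain. The copy Gm5879 had 72 CPM in p53, 55 in E20/p53 1-3 and 77.8 in E20/p53 4-6. The copy Gm12816 had 18.9, 14.2 and 22.7 CPM in the same blocks.

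By their labels, E20 and p53 set the PIK3CA allele against the p53 allele, both in tongue and neither with a labelled Cre. The marker genes given above differed between them as well. Only 3 members were higher and 6 lower by limma, 11% against 30.9% of all genes (14.5% higher and 16.4% lower), and the medians were 0.02 for members and -0.01 for all genes. Higher in E20 were Rpl22l1 (1.13 ± 0.18, limma adjusted p 2.1e-04), Rpl17 (0.29 ± 0.10) and Rpl4 (0.24 ± 0.07), a protein that lines the exit tunnel. Lower were Rps4l, Rplp0, Rps2, Rpl3, Rpl7l1 and Rpl12. Rpl3 had 106, 108 and 106 CPM in p53 and at most 68 in any other library, and its log2 change of -0.79 ± 0.20 (limma adjusted p 0.00602) shrank to -0.13 with 0.571 when the reads of its 2 copies were added. Without p53 replicate 1, or without replicate 3, 1 member was higher, since Rpl17 and Rpl4 were then not called (limma adjusted p up to 0.198). Rpl7l1 and Rpl12 were not called without any one of the p53 libraries (up to 0.137), Rpl12 also not without any of E20 4-6, and Rpl17 also not without E20 replicate 1, 2, 4 or 5. Without E20 4-6 the adjusted p was 0.216 for Rpl12 and 0.0807 for Rpl7l1, and without E20 1-3 it was 0.144 for Rpl17 (limma).

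Against WT, 11 members were higher and 4 lower in p53 (18.3% against 54.2% of all genes, 29.3% higher and 24.9% lower). In E20, 11 were higher and 6 lower (20.7% against 55.3%, 29% higher and 26.4% lower). In E20/p53, 4 were higher and 23 lower (32.9% against 48.1%, 26.5% higher and 21.6% lower). The share of members called was thus below the share of all genes in each, apart from the lower direction in E20/p53, where it was 28% against 21.6%. Median changes were 0.02, 0.03 and -0.25, and those of all genes 0.04, 0.04 and 0.05. Without E20/p53 1-3, E20/p53 had 23 higher and 15 lower members against WT, with 67.6% of all genes called. With 1 library left out, p53 had 7 higher members without WT or p53 replicate 2, and 2 lower without WT or p53 replicate 3. E20 had 5 higher without WT replicate 1 and 4 without replicate 2, and 2 lower without WT replicate 1 or 3. E20/p53 had 7 higher without any of its libraries 1 to 3, and 15 lower without WT replicate 3. These 3 comparisons share the WT libraries.

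Rpl29 and Rps27l were among the genes higher in both p53 and E20 than in WT. Rpl27 was higher in all 3 tongue groups, by 0.92 ± 0.25 in p53, 0.61 ± 0.21 in E20 and 0.61 ± 0.21 in E20/p53, with limma adjusted p of 0.00507, 0.023 and 0.0258. Its block means ran from 12.7 CPM in WT over 14.7 in E20/p53 1-3 to 25.7 in E20/p53 4-6. Rps27a was higher in p53 by 0.88 ± 0.25 (limma adjusted p 0.00687), and Rpl35a in E20 by 0.82 ± 0.27 (0.0161). Rpl32 was lower than in WT in p53, E20 and E20/p53, by -0.35, -0.26 and -0.43, each with an SE of 0.11, 0.10 and 0.10 (limma adjusted p 0.017, 0.0306 and 0.00179). Calls that were lost with 1 library left out were those of Rpl27 in E20 and E20/p53 and of Rpl35a in E20 (without WT replicate 1 or 2, limma adjusted p up to 0.088), and those of Rpl32 in p53 (without WT replicate 3 or p53 replicate 1 or 3) and in E20 (without any of WT or E20 1-3, up to 0.121). Without the whole of E20 1-3, Rpl27, Rpl35a and Rpl32 were not called in E20 (limma adjusted p 0.181, 0.129 and 0.278), and without E20/p53 4-6 Rpl27 was not called in E20/p53 (0.225). In E20/p53, Rpl28 (-0.81 ± 0.13, limma adjusted p 9.2e-05) was also below WT.

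Rps4l is a paralog of the X-linked Rps4x that GENCODE M21 lists as a transcribed processed pseudogene at chr6:148354656-148355598. It had 37.7, 32.3 and 38.1 CPM in WT and 11.9, 12.4 and 9.33 in p53. The 6 E20 libraries held 3 reads together and the 6 E20/p53 libraries held 1. WT exceeded E20 by a ratio of 1090 in summed reads (exact 95% interval 372 to 5280, counting error only) and E20/p53 by 3650 (654 to 144000). p53 exceeded E20 by 338 (115 to 1640), and WT exceeded p53 by 3.22 (2.92 to 3.56). Its limma calls were lower in p53 than in WT (adjusted p 0.00146) and lower in both other groups than in either. Of its 50-base windows 82% are its own. Rps4x was also lower in every E20 and E20/p53 library than in any WT or p53 library, but by far less than Rps4l. It had between 201 and 233 CPM in WT and p53, where both groups overlapped. In E20 it had 183, 188 and 183 CPM in libraries 1 to 3 and 153, 149 and 149 in libraries 4 to 6. In E20/p53 it had 97.1, 104 and 102, then 181, 168 and 172 CPM.

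Rpl22l1 is the paralog of Rpl22, whose protein is known to hold down the Rpl22l1 mRNA. It had 22.8, 26 and 25.6 CPM in WT, 28.6, 32.6 and 27.9 in p53, 51.2, 50.1 and 55.3 in E20 1-3, and 84.1, 79.4 and 78.9 in E20 4-6. In E20/p53 it had 15.4, 19.4 and 18.9, then 25.9, 21.3 and 24.4 CPM. All 6 E20 libraries were above the other 12. The E20/p53 group was lower than E20 by a log2 change of -1.65 ± 0.15 (limma adjusted p 3.5e-07), and E20 was above WT by 1.39 ± 0.18 (9.6e-06). The pseudogene Gm15421, which shares 51.9% of the windows of Rpl22l1, had 129 CPM in E20 1-3, 229 in E20 4-6 and between 41.5 and 60.9 in the means of the other blocks, so the assignment of reads between both rows is uncertain.

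Rpl22 itself split the E20 group. It had 337, 358 and 332 CPM in E20 1-3 and 173, 171 and 165 in E20 4-6, beside 417, 416 and 442 in WT and 354, 392 and 351 in p53. In E20/p53 the order was the reverse, with 218, 236 and 232 CPM in libraries 1 to 3 and 433, 410 and 439 in libraries 4 to 6. The limma call of E20 below WT (-0.82 ± 0.30, adjusted p 0.0281) was lost without E20 4-6 (-0.31, adjusted p 0.326) and without any single library of WT or E20 4-6 (up to 0.0803). As a percentage of Rpl22, Rpl22l1 was 5.84% ± 0.387 in WT, 8.1% ± 0.189 in p53, 15.3% ± 1.32 in E20 1-3 and 47.7% ± 1.08 in E20 4-6 (SD, n = 3). In E20/p53 it was 7.83% ± 0.648 and 5.57% ± 0.399. In E20/p53 1-3 Rpl22l1 was low, and Rpl22 was lower there than in WT, p53 and E20 1-3. The Rpl22 protein was not measured, and a link between the levels of both genes was not tested.

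Rps27l, the paralog of Rps27, is a known transcriptional target of p53. It had 57.1, 61.2 and 63.4 CPM in WT, 132, 140 and 134 in p53, 219, 233 and 212 in E20 1-3, and 130, 131 and 136 in E20 4-6. In E20/p53 it had 86.9, 91 and 93, then 101, 94.6 and 98.1 CPM. WT was the lowest group and E20/p53 stood between it and the other groups with no overlap. By limma it was higher than WT in p53 (1.16 ± 0.20, adjusted p 1.4e-04), E20 (1.5 ± 0.17, 1.8e-06) and E20/p53 (0.64 ± 0.17, 0.00575). It was lower in E20/p53 than in E20 (-0.86 ± 0.14, 1.3e-04) and than in p53 (-0.52 ± 0.17, 0.0334), the last lost without E20/p53 1-3 (adjusted p 0.106) and without any single library of p53 or E20/p53 1-3 (up to 0.112). Rps27 had between 6.5 and 13.6 CPM in all libraries, with most of its family's reads on Rps27rt.

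Rpl7l1, a paralog of Rpl7, was higher in E20/p53 than in E20, while Rpl7 was lower. It had 150, 152 and 148 CPM in WT, 198, 219 and 201 in p53, and between 153 and 169 in E20. In E20/p53 it had 187, 176 and 185, then 262, 246 and 258 CPM, with a change of 0.43 ± 0.10 against E20 (limma adjusted p 0.00189). Against p53 its log2 difference was 0.07 ± 0.12 (limma adjusted p 0.694). Rpl7 had 754, 757 and 732 CPM in E20 1-3 and 998, 985 and 997 in E20 4-6, against 382, 404 and 393 in E20/p53 1-3 and 652, 622 and 675 in E20/p53 4-6, a log2 change of -0.77 ± 0.15 (limma adjusted p 8.7e-04). Its block means were 676 CPM in WT and 669 in p53, close to the 650 of E20/p53 4-6. Against p53 Rpl7 was not called lower (-0.40 ± 0.19, limma adjusted p 0.129). The paralog therefore came to 46.4% ± 2.71 and 39.3% ± 0.962 of its parent in the blocks of E20/p53 and to between 16.2% and 30.8% in the means of the others.

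The remaining paralogs were at or near 0. Rpl3l, the form of Rpl3 in heart and skeletal muscle, had 61 reads over all 18 libraries, 30 of them in WT and 6 in p53, the group with the highest skeletal muscle markers. Rpl39l had 2 reads and Rpl10l had 0. Both are known from testis.

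**Figure D5:**
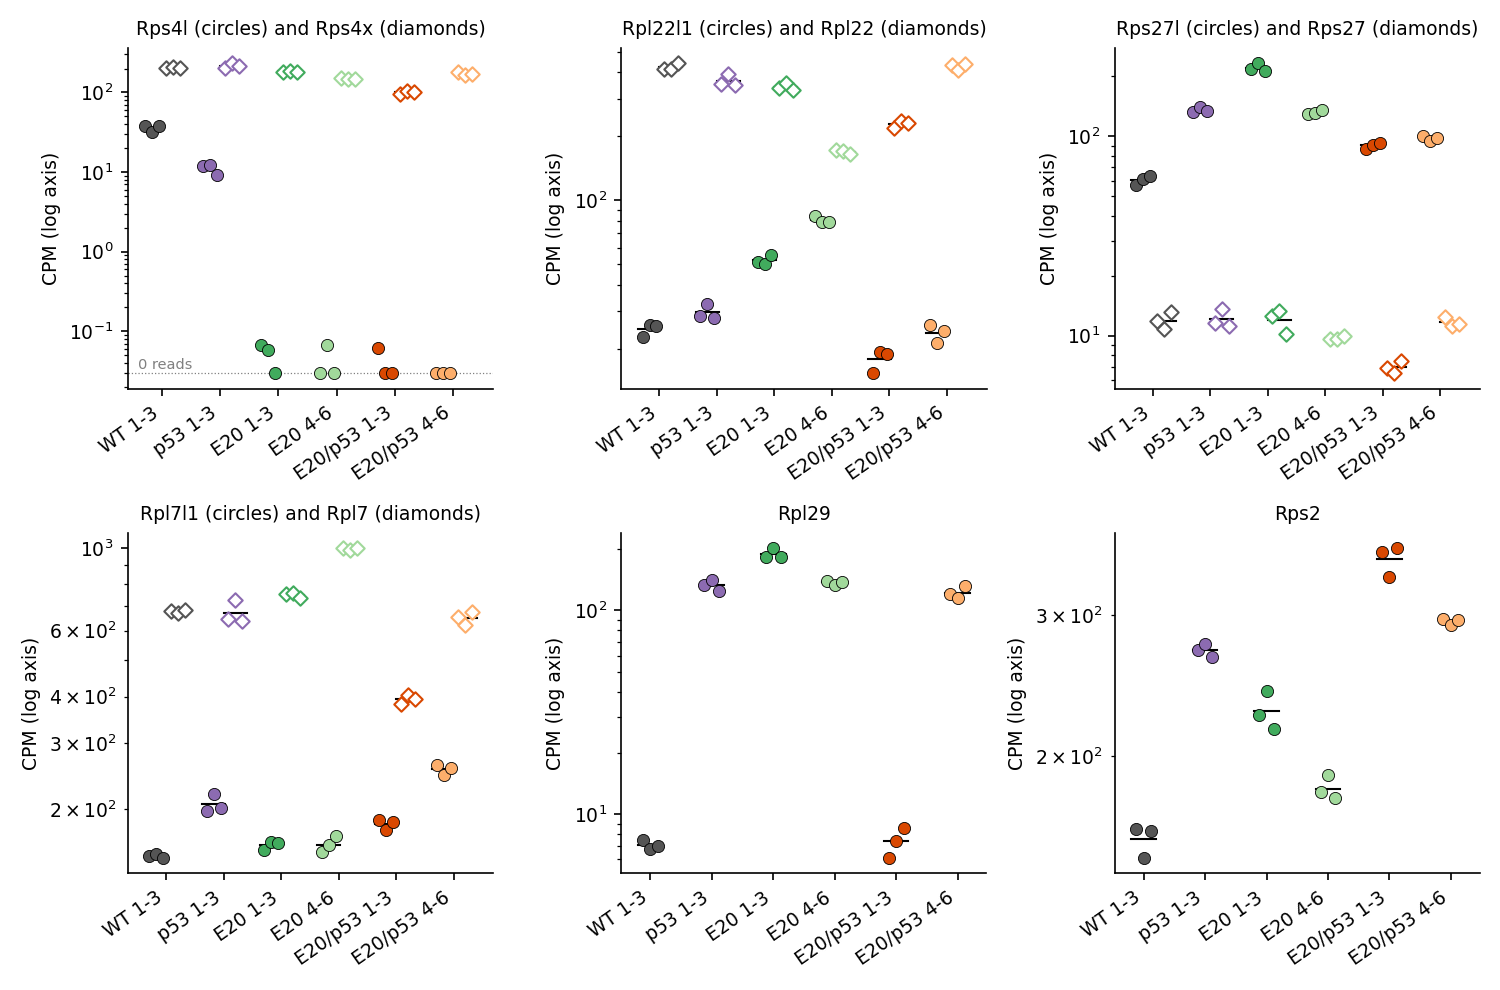
CPM of Rps4l, Rpl22l1, Rps27l and Rpl7l1 with their parents, and of Rpl29 and Rps2, in each library (vertical, log axis) by block (horizontal). Circles are the paralog or the gene named, diamonds the parent, and bars are block means. Libraries with 0 reads of Rps4l stand on the dotted line, and that panel's circles carry no means. Rpl22l1 is highest in E20 4-6, where Rpl22 is lowest, and Rpl29 is near 7 CPM in WT and E20/p53 1-3.

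Other genes of the translation apparatus did not all share the members' changes. Among ribosomal proteins outside the symbol rule, Rpl36al was lower in E20/p53 than in E20 (-0.39 ± 0.09, limma adjusted p 0.00249), and Rps3a1, Fau and Rack1 were not called. Of 18 translation factors and other TOP mRNAs, 0 were higher and 5 lower by limma, against 23% and 19.6% of all genes. Tpt1, the translationally controlled tumour protein, fell by -0.73 ± 0.07 (limma adjusted p 3.0e-07) and Eif3f, a subunit of initiation factor eIF3, by -0.64 ± 0.07 (1.2e-06). Both were low in each block of E20/p53: Tpt1 had 156 and 162 CPM there, against 275 and 252 in the blocks of E20.

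Of 23 ribosome biogenesis genes, which make and process ribosomal RNA, 8 were higher and 0 lower in E20/p53 than in E20 by limma, and 15 were not called. Their median was 0.31, and 23% of all genes were called higher. Heatr1, which acts in early ribosomal RNA synthesis, rose by 0.96 ± 0.07 (limma adjusted p 2.5e-08), and Polr1b, the second subunit of RNA polymerase I, by 0.80 ± 0.06 (2.2e-08). Heatr1 had 58.2 and 54.5 CPM in the blocks of E20 and 98.7 and 122 in those of E20/p53. The list was split in E20/p53 1-3, where 5 of the 23 block means lay above both blocks of E20 and 11 lay below both, whereas in E20/p53 4-6 22 lay above both and 0 below. Ncl, Nop58, Pes1, Wdr12 and Gnl3 had their lowest block in E20/p53 1-3, as most core ribosomal protein genes did, and Ncl, the nucleolar protein nucleolin, had 848 CPM there against 1140 and 1560 in the blocks of E20 and 1770 in E20/p53 4-6. In E20 against p53, 15 of the 23 were lower and 0 higher, against 16.4% of all genes called lower, with a median of -0.58 where the members' median was 0.02. In p53 against WT, 20 were higher and 0 lower, against 29.3% of all genes called higher.

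Of 8 regulators, 5 were higher in E20/p53 than in E20, against 23% of all genes. Myc, which drives ribosome synthesis, rose by 0.83 ± 0.07 (limma adjusted p 3.2e-07), Rps6kb1, the S6 kinase, by 0.28 ± 0.04 (1.1e-04), Mtor by 0.52 ± 0.09 (2.9e-04), and Larp1 by 0.31 ± 0.08 (0.00477), the last not called without E20 1-3 (0.0647). Myc was nonetheless highest in WT, at 148 CPM. It had 105 in p53, 71.8 and 59.2 in the blocks of E20, and 107 and 125 in those of E20/p53. Mitochondrial ribosomal proteins, which serve a separate ribosome, were mostly higher in tongue than in WT: of 77 tested, 42, 45 and 43 were higher than in WT in p53, E20 and E20/p53, against 29.3%, 29% and 26.5% of all genes. They summed to 0.269% of the total in WT, 0.305% in E20/p53 1-3 and at least 0.356% in the other blocks. Between E20/p53 and E20, 11 were higher and 15 lower, against 23% and 19.6% of all genes.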

How the data were processed

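Poly(A) RNA of 18 mouse libraries was sequenced with the TruSeq Stranded mRNA LT kit, per the labels' protocols. Per the submitters' processing notes, bcl2fastq 1.8.4, Trimmomatic and featureCounts were used with mm10. For the aligner, annotation, strand setting and treatment of multiple matches, nothing is given in the sources used here. The authors deposited log2 values: reads plus 1, divided by a scaled total per library. Taking each column's smallest value as 0 reads returned whole reads for 100% of values (within 0.001). CPM are reads per 1000000 of that scaled total, which lay between 0.939 and 1.12 times the summed reads. Between libraries of a block, chi-square per gene was 1.48 to 51.5, so none counted as duplicates, and the highest values involved p53 replicate 3.

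The earlier plan assumed counts. As the deposited unit is log2, limma 3.58.1 (R 4.3.3) was fitted to those values with a mean-variance trend, in 1 fit of 4 group means over 18 libraries (14 residual degrees of freedom). Genes needed 0.635 CPM (10 reads at the median depth) in 3 libraries and 15 reads in all, which kept 15235. P-values were adjusted by Benjamini-Hochberg over these, and 0.05 was the threshold. The model was tested on simulated counts with the same dispersion for all genes and no blocks within a group. That test does not cover the split of E20 and E20/p53 into blocks. Log2 changes are on the log2 scale of reads plus 1, so those of low genes are understated. Blocks were not compared by a test. Transcripts and gene positions (mm10, GENCODE M21) were 1 per gene, the shortest with a CCDS tag. A copy is a row named as a pseudogene, Gm gene or retrocopy.

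The genes, lists and rule for naming were chosen with earlier results of these data known. The rule names paralogs with their parents, up to 4 higher and 4 lower members per comparison (called, with 5 CPM or more in the higher group and groups apart), 8 members by role, the least and most spread core gene, and up to 2 genes per list and tongue comparison. Some genes that the rule or the lists take are not reported here. Alternatives were TMM factors, the sum of reads without the members, no or a strict filter, log2 of CPM plus 1, voom, the 2 groups alone, a replicate block, a 1.2-fold minimum, each library or block left out, block means, and no paralogs. Adding the reads of copies to the parent was chosen after seeing the data.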

Additional observations from a re-analysis of the deposited data

Results flagged for a closer look

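Of 78 sets of a group and a named member (or the members' sum) in the groups of 6 libraries, 1 held a library far from the others. Rpl28 had 11.9 CPM in E20/p53 replicate 4, and between 7.9 and 9.15 CPM in the other 5 libraries of that group. The gap to the nearest library was 0.683 of the group's whole range, above Dixon's critical value at 95%. Chance alone flags about 1 in 20 groups.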

How the results depend on the processing

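Counts are members called higher / lower, beside the reported 4/33 (E20/p53 against E20), 1/16 (E20/p53 against p53), 3/6 (E20 against p53), 11/4 (p53 against WT), 11/6 (E20 against WT) and 4/23 (E20/p53 against WT). Under the alternatives run for single genes (all but the strict filter, the 1.2-fold minimum, the block means and the removal of paralogs, which were run for counts only), no named call changed its direction, and 98 of 158 held under each. With limma on 6 block means all counts were 0 (at an unadjusted p under 0.05 at most 3 higher and 2 lower), but this fit called at most 8 of all 15235 genes in any comparison. With voom and quality weights, 63 were lower in E20/p53 against E20, 2 higher and 74 lower against p53, and 65 lower against WT, with 76.3%, 77.9% and 74.6% of all genes called. The same setting gave 10 higher and 32 lower in E20 against p53, 29 and 25 in p53 against WT, and 18 and 31 in E20 against WT (all genes 70.4%, 81.6% and 80.3%). A 1.2-fold minimum gave, in the order above, 1/10, 0/2, 1/2, 6/1, 3/1 and 1/7. With the 2 groups alone, 6 were lower in E20/p53 against p53, 5 higher and 10 lower in E20 against p53, 29 and 22 in p53 against WT, and 12 lower in E20 against WT. Scaling by the sum of reads without the members gave 13 lower in p53 against WT, and 4 higher and 20 lower in E20 against WT; it moved the median of all genes from 0.05 to 0.16 in E20/p53 against E20, where the members' median became -0.17, from 0.02 to 0.11 against p53 (members -0.26), and from 0.04 to -0.13 in E20 against WT (members -0.14). With no filter the median of all genes in p53 against WT was 0.12. TMM factors gave 0 higher in E20/p53 against p53. Adding copies to parents gave 7 lower in p53 against WT, and without the paralogs 2 were higher in E20/p53 against WT. Without E20/p53 1-3 the counts were 20/15, 4/7 and 23/15 against E20, p53 and WT; without E20/p53 4-6, 64 were lower against E20, 2 higher and 65 lower against p53, and 58 lower against WT. Without E20 1-3, 7 were higher and 16 lower in E20/p53 against E20, 11 lower in E20 against p53 and 4 higher in E20 against WT; without E20 4-6, 2 were higher in E20/p53 against E20 and 8 in E20 against p53. Leaving out 1 library gave 4 higher and 23 to 41 lower (E20/p53 against E20), 0 to 1 and 5 to 25 (against p53), 1 to 4 and 4 to 6 (E20 against p53), 7 to 10 and 2 to 5 (p53 against WT), 4 to 12 and 2 to 5 (E20 against WT), and 3 to 7 and 15 to 31 (E20/p53 against WT).

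Same-numbered libraries showed no sign of pairing: their deviations from the mean of the libraries compared correlated between -0.0513 and 0.074 over the 6 comparisons. In E20/p53 against E20 these deviations hold the split into blocks, so pairing within a block was not tested there. With the replicate block 2 members were higher in E20/p53 against p53 and 5 in E20 against WT, and the other counts stayed within 1.5 times the reported ones. Depth limits Rps4l in E20 and E20/p53, where 3 reads correspond to 0.033 and 0.0296 CPM, and Rpl3l, Rpl39l and Rpl10l everywhere.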
